A study of Homo sapiens with 6 samples.

Results

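The autophagy machinery was followed as 37 genes, given as a list from the initiating kinases to the fusion of autophagosomes with lysosomes. All 37 were among the 19775 genes with a probe set of their own on the Affymetrix U133 Plus 2.0 array, and all 37 lay above the median signal of all 6 arrays, so all entered the test. IMR90 human lung fibroblasts carrying a 4-hydroxytamoxifen (4-OHT) inducible ER:Ras, an oncogenic H-ras fusion, were compared in 3 states of 2 biological replicates each. RB-KD OIS cells were kept in 4-OHT (100 nM) over 6 days, which brings on oncogene-induced senescence (OIS) and had siRNA against RB1 for the last 4 days. Ctrl-KD OIS cells received the same 4-OHT and a control siRNA, and growing cells received neither 4-OHT nor siRNA. The Ras switch and the siRNA transfection therefore cannot be told apart in a comparison with growing cells. All states carry ER:Ras in 1 cell line, so other fibroblasts are not represented.

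Macroautophagy encloses cytoplasm in a double membrane and delivers it to lysosomes. The ULK kinase complex starts the process, a phosphatidylinositol 3-kinase complex built on BECN1 and PIK3C3 marks the membrane, and ATG9A vesicles, ATG2 lipid channels and WIPI proteins let it grow. Ubiquitin-like conjugation by ATG7, ATG3, ATG10 and the ATG12-ATG5-ATG16L1 complex then attaches the ATG8 proteins (LC3 and GABARAP families) to lipid, cargo receptors bind them, and STX17 drives fusion with the lysosome. Autophagy is known to be switched on in Ras-induced senescence of fibroblasts. Transcript levels alone do not measure the flow of cargo to lysosomes.

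The knockdown target matched the labels, as RB1 read 221.7 and 228.5 on the RB-KD OIS arrays, 2578 and 1914.5 on the Ctrl-KD OIS arrays and 2627 and 2528 on the growing arrays, in MAS5 signal, a linear brightness per probe set that the authors scaled to a common level per array. Trimmed means lay between 496.2 and 496.5 and medians between 46 and 51.8, so a change in total RNA per cell is not seen, and fewer cells with a transcript cannot be told apart from less of it per cell. All 8 fibroblast markers were above the array median on every array, with summed signals of 138480 to 166667 in RB-KD OIS cells, 120799 to 121209 in Ctrl-KD OIS cells and 196312 to 197082 in growing cells. Of the 5 epithelial and 3 leukocyte markers read, 0 were above the median on all arrays, whereas 2 of 4 endothelial markers were, and these 4 summed to 1419 to 1557, 510.3 to 531.6 and 1286 to 1417 in the RB-KD OIS, Ctrl-KD OIS and growing states. The 6 senescence markers (CDKN1A, CDKN2A, CDKN2B, IL6, CXCL8 and HRAS) summed to 137322 to 150498, 118690 to 129861 and 37643 to 38347 in that order. HRAS is also the introduced oncogene, and the brightest genes weigh most in such a sum. The 7 cycling markers summed to 8409 to 10468 in RB-KD OIS cells, 2316 to 3346 in Ctrl-KD OIS cells and 15890 to 15927 in growing cells. Their part in the results on autophagy genes was not tested.

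Promoters of 5 members with called changes are shown, each from 250 bases before to 50 after the RefSeq start site, 5′ to 3′ (RefSeq, GRCh38.p14). Those of other called members, among them WIPI2, ULK3 and BECN1, are not shown. ULK2 changed most between the OIS states, the ATG8 genes MAP1LC3B and GABARAPL1 moved in opposite directions in senescence, ATG14 was higher in both OIS states and ATG3 was highest after RB depletion. They lie at chr17:19867887-19868186, minus strand (ULK2), chr16:87392086-87392385, plus strand (MAP1LC3B), chr12:10212627-10212926, plus strand (GABARAPL1), chr14:55411781-55412080, minus strand (ATG14) and chr3:112561913-112562212, minus strand (ATG3). Capitals mark matches to the searched letters.
ULK2: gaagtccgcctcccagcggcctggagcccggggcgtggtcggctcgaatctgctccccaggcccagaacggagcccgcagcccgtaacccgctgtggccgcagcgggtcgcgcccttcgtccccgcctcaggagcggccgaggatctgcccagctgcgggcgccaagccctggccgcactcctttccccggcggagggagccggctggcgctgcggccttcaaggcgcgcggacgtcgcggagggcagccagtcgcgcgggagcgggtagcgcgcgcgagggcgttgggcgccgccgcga
MAP1LC3B: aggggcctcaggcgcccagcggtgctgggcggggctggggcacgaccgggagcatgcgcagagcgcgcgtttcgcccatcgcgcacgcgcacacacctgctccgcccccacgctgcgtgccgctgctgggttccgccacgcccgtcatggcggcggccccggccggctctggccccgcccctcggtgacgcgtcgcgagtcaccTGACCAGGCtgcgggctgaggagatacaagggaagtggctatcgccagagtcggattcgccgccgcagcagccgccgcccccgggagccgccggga
GABARAPL1: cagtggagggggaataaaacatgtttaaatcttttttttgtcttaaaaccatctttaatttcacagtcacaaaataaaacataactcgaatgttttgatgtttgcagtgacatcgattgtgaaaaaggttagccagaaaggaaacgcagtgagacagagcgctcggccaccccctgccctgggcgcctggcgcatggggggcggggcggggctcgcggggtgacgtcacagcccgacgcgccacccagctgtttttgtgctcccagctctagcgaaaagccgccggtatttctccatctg
ATG14: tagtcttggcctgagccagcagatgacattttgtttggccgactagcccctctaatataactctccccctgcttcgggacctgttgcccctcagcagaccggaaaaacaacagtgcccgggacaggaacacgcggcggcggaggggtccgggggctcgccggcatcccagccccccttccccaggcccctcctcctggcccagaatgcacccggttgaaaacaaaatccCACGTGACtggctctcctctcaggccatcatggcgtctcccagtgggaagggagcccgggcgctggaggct
ATG3: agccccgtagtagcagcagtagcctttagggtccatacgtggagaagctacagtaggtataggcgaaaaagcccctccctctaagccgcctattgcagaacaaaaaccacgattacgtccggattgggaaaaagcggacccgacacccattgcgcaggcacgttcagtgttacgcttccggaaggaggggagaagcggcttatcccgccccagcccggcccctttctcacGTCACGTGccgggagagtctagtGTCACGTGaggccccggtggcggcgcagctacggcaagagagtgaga

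Each motif was searched on both strands in the promoters of 33 members and of 27305 genes. RefSeq promoters for RB1CC1, UVRAG, ATG4D and STX17 were not used here. GTCACGTG, the E-box form bound by TFEB and its relatives, was found in 2 of 33 member promoters (6.06%) and in 2.53% of all promoters. These were ATG14, once at 21 bases before the start, and ATG3, at 20 bases before and 3 bases after it. CACGTG, the core that GTCACGTG contains, was also found in ULK3, which made 3 of 33 (9.09%, against 7.43% of all promoters). TGACNNNGC, a short form of the antioxidant response element, was found in ULK3, ATG101, MAP1LC3B and CALCOCO2 (12.1%, against 13.6% of all promoters). TGACTCA, bound by AP-1, and the E2F forms TTTGGCGC and TTTCCCGC were found in 0 of 33, against 4.92%, 0.659% and 1.66% of all promoters. The capitals in MAP1LC3B are TGACNNNGC, those in ATG14 GTCACGTG on the opposite strand, and those in ATG3 its 2 copies of GTCACGTG. The promoters of ULK2 and GABARAPL1 held none of the searched letters, nor did those of WIPI2 and BECN1.

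In Ctrl-KD OIS cells a set of autophagy transcripts led by WIPI2, ULK3, ATG2A and MAP1LC3B was higher than in growing cells, and GABARAPL1 and ULK2 were lower. Of the 37 genes, 11 were higher (29.7%, against 20.5% of the 13398 genes tested) and 2 lower (5.41%, against 21.2%) in the Ctrl-KD OIS state relative to growing cells. Calls in either direction made up 35.1% of the members and 41.7% of all genes. A call is an adjusted p under 0.05 in limma, with a spread shared by all 3 states and p values adjusted over all genes tested. The median log2 fold change was 0.15 over the members and -0.0094 over all genes, with a range of -1.36 to 1.17 in the members. By step, 2 of 6 initiation, 2 of 6 nucleation, 3 of 6 membrane supply, 1 of 10 conjugation, 2 of 3 ATG8 and 1 of 5 receptor genes were higher, and 1 initiation and 1 ATG8 gene were lower. Calls were kept in all 15 alternatives for 10 of the 13 genes, and were lost in at least 1 for ATG101, UVRAG and SQSTM1.

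RB-depleted OIS cells also differed from growing cells, with WIPI2, ULK3 and ATG14 highest in fold and GABARAPL1 lowest. Here 10 of 37 genes were higher (27%, against 18.5% of all genes) and 4 lower (10.8%, against 19.0%), which together were 37.8% of the members and 37.6% of all genes. Under median centring the split was 15 higher and 1 lower, and BECN1, ATG9A and NBR1 were no longer called lower. The median was 0.21 over the members and -0.015 over all genes. Membrane supply had 3 of 6 genes higher and 1 lower, nucleation 3 and 1, initiation 2 and 0, conjugation 1 of 10 and 0, ATG8 proteins 1 of 3 and 1, and receptors 0 of 5 and 1. In place of these 14 calls there were 5 and 7 without growing replicates 1 and 2, 6 and 11 without RB-KD OIS replicates 1 and 2, and 16 without either Ctrl-KD OIS replicate. ATG14, WIPI1 and GABARAPL1 kept their call in all 15 alternatives. This comparison shares its growing arrays with the one before, so the changes are given side by side below.

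RB depletion within OIS raised ULK2, ATG10 and ATG3 and lowered MAP1LC3B, BECN1, SQSTM1, WIPI2, GABARAPL2 and TAX1BP1. In the RB-KD over Ctrl-KD comparison of OIS cells 3 of 37 genes were thus higher (8.11%, against 12.6% of all genes) and 6 lower (16.2%, against 11.6%), in all 24.3% of the members and 24.2% of all genes. The median was -0.10 over the members and -0.023 over all genes. The genes that fell belong to the ATG8 proteins (2 of 3), the receptors (2 of 5), nucleation and membrane supply (1 of 6 each), and those that rose to initiation (1 of 6) and conjugation (2 of 10). The count was 4 without RB-KD OIS replicate 1 and 4 without replicate 2. ULK2 and MAP1LC3B kept their call in all 15 alternatives, and the other 7 genes lost it in at least 1.

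**Figure D1:**
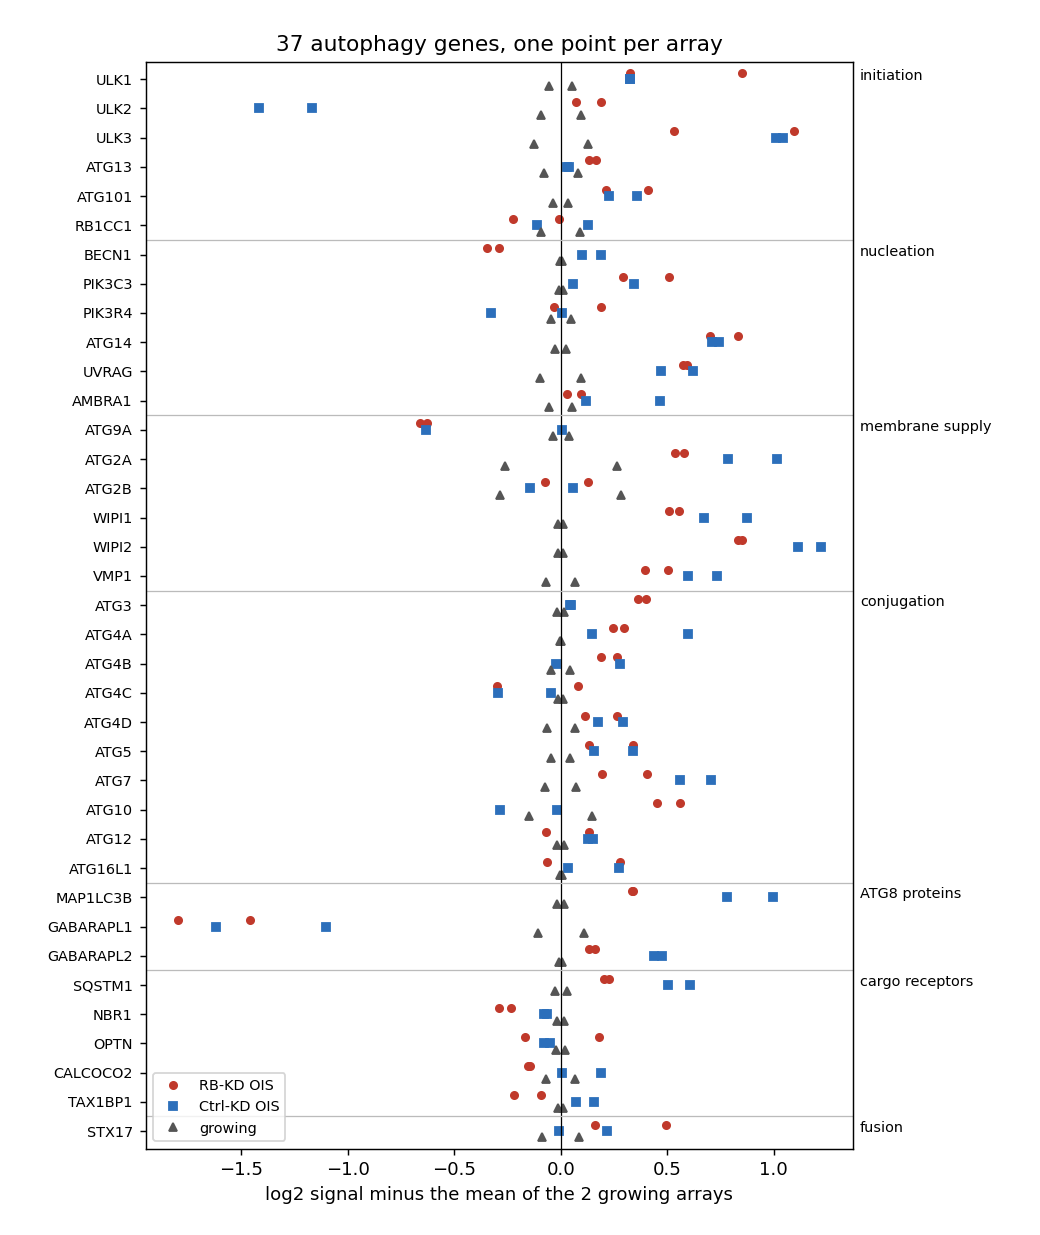
Log2 signal of each of the 37 genes on each array minus the mean of the 2 growing arrays (horizontal), with RB-KD OIS arrays as red circles, Ctrl-KD OIS arrays as blue squares and growing arrays as grey triangles, in order of step. The Ctrl-KD OIS squares of ULK2 lie far left of its other points, both OIS states of GABARAPL1 lie left of growing cells, and both lie right of them for WIPI2.

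In the initiation complex ULK2 carried the largest difference between the OIS states. ULK2, a kinase that can stand in for ULK1, had signals of 569 and 616.5 in RB-KD OIS cells, 202.4 and 241 in Ctrl-KD OIS cells and 577.1 and 506.5 in growing cells. The Ctrl-KD OIS arrays lay below all others, while the RB-KD OIS and growing arrays overlapped. Its log2 fold change was 1.42 in RB-KD over Ctrl-KD cells of the OIS state (standard error 0.16, adjusted p = 0.000397) and -1.29 in Ctrl-KD OIS relative to growing cells (adjusted p = 0.000205). Against growing cells RB-KD OIS cells had 0.13, with a 95% interval of -0.24 to 0.50 (adjusted p = 0.57). Of the other 3 ULK2 probe sets, the dimmest read only 10.1 and 4.8 in Ctrl-KD OIS cells, below the array median. It entered the test only through growing and RB-KD OIS arrays, so its fold change and calls are not counted. The remaining probe sets gave 1.21 and 1.61 between the OIS states. They were also lower in Ctrl-KD OIS than growing cells, each with a call both times. The one with 1.61 read 53.3 and 27.4 in Ctrl-KD OIS cells, the second value below its array median.

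ULK3, a related kinase whose forced expression is known to induce autophagy in human fibroblasts, moved the other way in senescence. It read 367.9 and 249 in RB-KD OIS cells, 354.7 and 346.8 in Ctrl-KD OIS cells and 157.7 and 187.9 in growing cells, so both OIS states lay above growing cells. The log2 signal of ULK3 rose over growing cells by 0.81 with RB-KD (adjusted p = 0.0199) and by 1.03 with Ctrl-KD (adjusted p = 0.00569). The RB-KD OIS call of ULK3 was lost in 3 of 15 alternatives, with 0.53 without RB-KD OIS replicate 1 (adjusted p = 0.135). ATG101, which stabilises ATG13 in the complex, read 3209 and 2799 in RB-KD OIS, 2828 and 3096 in Ctrl-KD OIS and 2472 and 2357 in growing cells, and its changes against growing cells were 0.31 and 0.29 (adjusted p = 0.0368 and 0.0433). The ATG101 calls are close to the threshold and were lost in 5 and 7 of the 15 alternatives. ULK1 itself was not called, with 263.9 and 183.3 in RB-KD OIS, 183.3 and 183.5 in Ctrl-KD OIS and 152.1 and 140.9 in growing cells. On their brightest probe sets ATG13, the regulatory subunit, and RB1CC1 (FIP200), the scaffold, had changes of -0.12 to 0.15 in the 3 comparisons. Their 95% intervals lay within -0.40 to 0.43, with no call. A dimmer ATG13 probe set was called over growing cells, at 0.58 in RB-KD OIS and 0.86 in Ctrl-KD OIS (adjusted p = 0.0269 and 0.00326).

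Among the nucleation genes ATG14 was raised in both OIS states and BECN1 was lowered by RB depletion. ATG14 directs the lipid kinase to sites of autophagosome formation. It read 1225 and 1344 in RB-KD OIS, 1263 and 1234 in Ctrl-KD OIS and 740.5 and 769.1 in growing cells, with no overlap between OIS and growing arrays. Over growing cells its log2 fold change was 0.77 in RB-KD OIS and 0.73 in Ctrl-KD OIS cells (standard error 0.11 each, adjusted p = 0.000516 and 0.000565), and the OIS states differed by 0.04, with a 95% interval of -0.20 to 0.28. UVRAG, the subunit that takes the place of ATG14 in endosomal complexes, had 604.3 and 612.1, 562.6 and 624.1, and 379.9 and 433.5 in the RB-KD OIS, Ctrl-KD OIS and growing states. Both of its OIS states lay above growing cells, by 0.58 and 0.55 (adjusted p = 0.00985 and 0.0123).

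BECN1 (Beclin 1), the scaffold of both complexes, read 1771 and 1843 in RB-KD OIS cells, 2568 and 2414 in Ctrl-KD OIS cells and 2261 and 2245 in growing cells. The RB-KD OIS arrays were the lowest and did not overlap with either other state. BECN1 fell by 0.46 in RB-KD over Ctrl-KD cells of the OIS state (standard error 0.09, adjusted p = 0.00593) and by 0.32 against growing cells (adjusted p = 0.0205). The second BECN1 probe set fell by 0.62 in RB-KD OIS against growing cells (adjusted p = 0.00202) and gave -0.33 between the OIS states (adjusted p = 0.0619). PIK3C3 (VPS34), the catalytic subunit, read 3331 and 2870 in RB-KD OIS, 2968 and 2434 in Ctrl-KD OIS and 2325 and 2354 in growing cells. On this brightest probe set its only call was a rise of 0.40 in RB-KD OIS over growing cells (adjusted p = 0.0247), lost in 5 of 15 alternatives. Its dimmer tested probe sets had -0.64, -0.85 and -0.29 in that comparison, with no call. PIK3R4 (VPS15), its regulatory partner, and AMBRA1, which links the complex to ULK1, were not called, with changes between -0.23 and 0.29.

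Membrane supply held the largest rise over growing cells, that of WIPI2, which binds the lipid made by PIK3C3 and recruits ATG16L1. WIPI2 had 3718 and 3764 in RB-KD OIS cells, 4862 and 4518 in Ctrl-KD OIS cells and 2102 and 2071 in growing cells. The 3 states did not overlap, with RB-KD OIS cells between the others. WIPI2 was 1.79-fold higher in RB-KD OIS and 2.25-fold higher in Ctrl-KD OIS relative to growing cells (log2 0.84 and 1.17, standard error 0.08 each, adjusted p = 6.72e-05 and 6.79e-06). Between the OIS states it fell by 0.33 (adjusted p = 0.0224), a call lost in 9 of 15 alternatives. Its relative WIPI1 read 5980 and 5774, 7452 and 6486, and 4032 and 4095 in RB-KD OIS, Ctrl-KD OIS and growing cells, and rose by 0.53 and 0.77 over growing cells (adjusted p = 0.00151 and 0.000125). For WIPI1 the difference between the OIS states was -0.24, with a 95% interval of -0.45 to -0.04 (adjusted p = 0.0831).

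ATG2A, a lipid transfer protein of the growing membrane, read 606.5 and 623.3 in RB-KD OIS cells, 720.2 and 843.2 in Ctrl-KD OIS cells and 501.1 and 348.2 in growing cells. Its growing arrays were spread widely but stayed below all OIS arrays, and ATG2A rose by 0.56 and 0.90 over growing cells (adjusted p = 0.0391 and 0.00358). The RB-KD OIS call of ATG2A was lost in 6 of 15 alternatives, with 0.30 without growing replicate 2 (adjusted p = 0.291), and it was also lost without either RB-KD OIS replicate. ATG9A, the lipid scramblase of the seed vesicles, fell in RB-KD OIS cells, with 359.8 and 352.1 against 570.5 and 541.2 in growing cells (log2 -0.64, adjusted p = 0.0346). The ATG9A call was lost in 8 of 15 alternatives, among them quantile normalization, median centring and the fit without the variance trend. Ctrl-KD OIS cells had 557.8 and 358.5 for ATG9A, so 1 array lay in the range of growing cells and the other in that of RB-KD OIS cells. ATG2B was not called on its brightest probe set. A dimmer one was called against growing cells, at -0.72 in RB-KD OIS and -0.89 in Ctrl-KD OIS (adjusted p = 0.0414 and 0.0145). VMP1, a scramblase of the endoplasmic reticulum, read from 68.8 to 120 on its only probe set naming it alone, not far above the array medians, and was not called, and 3 further probe sets name it together with a microRNA gene and were not used.

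**Figure D2:**
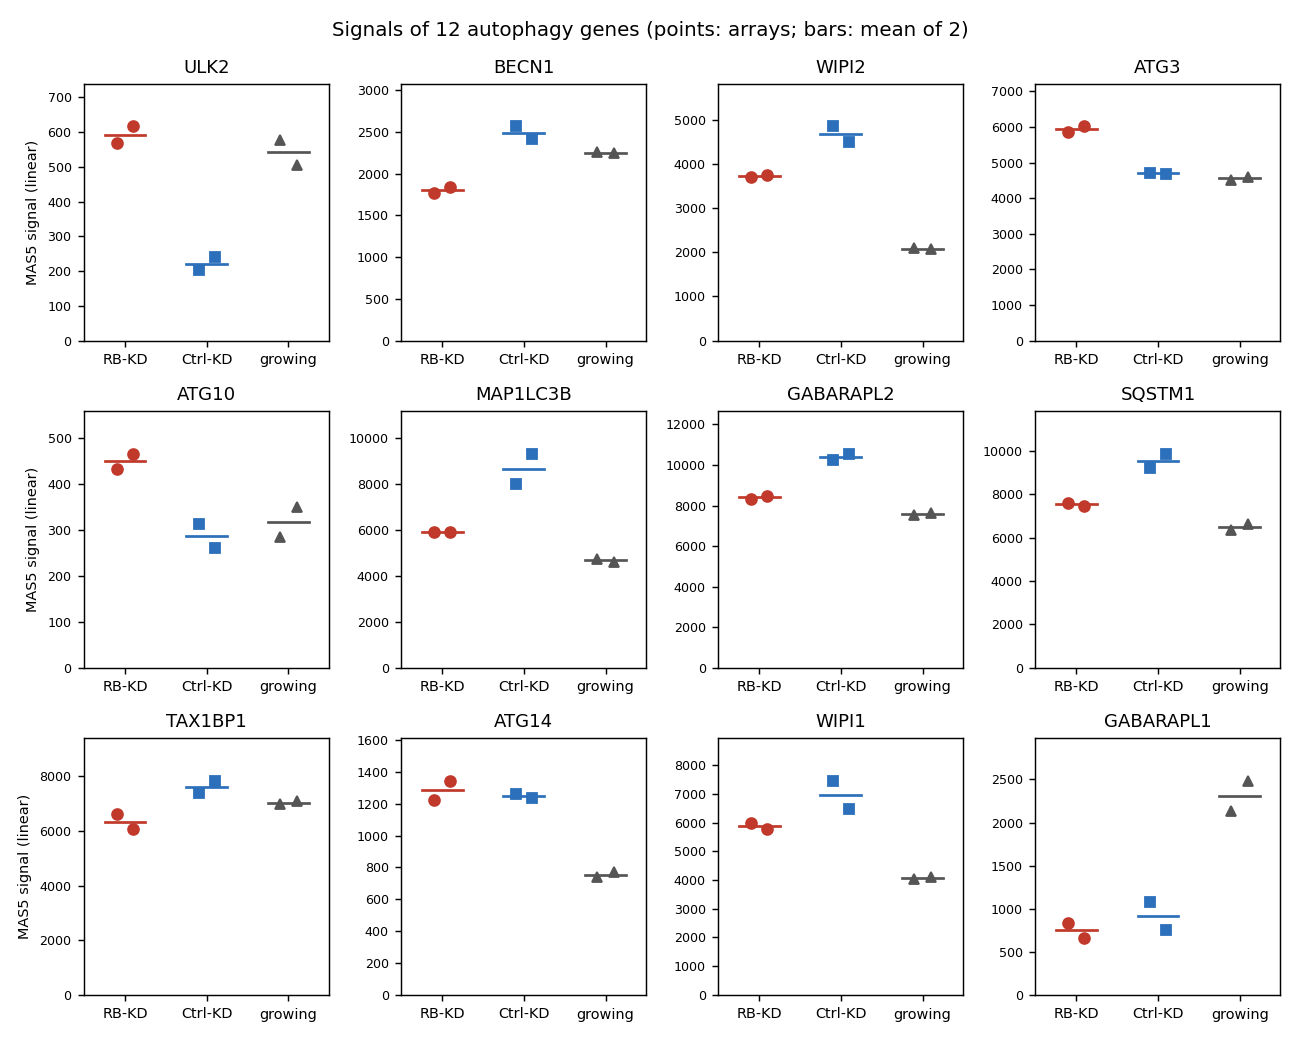
MAS5 signal (linear, from 0) of the 9 genes called between the OIS states and of ATG14, WIPI1 and GABARAPL1, with a point for each array and a bar at the mean of 2, in RB-KD OIS, Ctrl-KD OIS and growing cells. MAP1LC3B, GABARAPL2, SQSTM1 and WIPI2 have RB-KD OIS arrays between the other states, whereas ULK2 in RB-KD OIS cells lies at the level of growing cells.

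Of the 10 conjugation genes, 1 was called in Ctrl-KD OIS relative to growing cells (ATG7, 10%, against 41.7% of all genes). In RB-KD OIS against growing cells 1 was called (ATG3, 10%, against 37.6%), and between the OIS states 2 (ATG3 and ATG10, 20%, against 24.2%). ATG7, the activating enzyme of both conjugation reactions, read 805.7 and 933.3 in RB-KD OIS cells, 1037 and 1147 in Ctrl-KD OIS cells and 669.5 and 741 in growing cells. It rose by 0.63 in Ctrl-KD OIS over growing cells (adjusted p = 0.00359), and had 0.30 in RB-KD OIS over growing cells (adjusted p = 0.0997) and -0.33 between the OIS states (adjusted p = 0.0958). A dimmer ATG7 probe set was called in both of these, with 0.55 and -0.43 (adjusted p = 0.00939 and 0.0445). ATG3, which transfers ATG8 proteins to lipid, read 5850 and 6014.5 in RB-KD OIS cells, above 4712 and 4689 in Ctrl-KD OIS cells and 4507 and 4604 in growing cells. ATG3 rose by 0.34 between the OIS states (adjusted p = 0.0133) and by 0.38 over growing cells (adjusted p = 0.00409), whereas Ctrl-KD OIS cells had 0.05 over growing cells, with a 95% interval of -0.13 to 0.22.

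ATG10, the conjugating enzyme of ATG12, was likewise highest after RB depletion, with 432.2 and 466.2 in RB-KD OIS, 312.7 and 259.7 in Ctrl-KD OIS and 285.4 and 350.1 in growing cells. Its rise between the OIS states was 0.66 (standard error 0.18, adjusted p = 0.0296), and against growing cells RB-KD OIS cells had 0.51 (adjusted p = 0.0558). The second ATG10 probe set gave 0.54 between the OIS states (adjusted p = 0.0686) and fell by 0.72 in Ctrl-KD OIS relative to growing cells, where the first had -0.15. The proteases ATG4A, ATG4B, ATG4C and ATG4D, which prime and recycle ATG8 proteins, had changes of -0.17 to 0.37 in the 3 comparisons and no call. ATG5, ATG12 and ATG16L1, which together form the ligase, had changes of -0.11 to 0.25 and no call on their brightest probe sets. Dimmer probe sets of ATG5 and ATG12 were called in Ctrl-KD OIS relative to growing cells, at -0.71 and 0.40. The same ATG5 probe set was called at -0.58 in RB-KD OIS against growing cells.

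Of the 3 ATG8 genes among the members, MAP1LC3B and GABARAPL2 were higher and GABARAPL1 was lower in Ctrl-KD OIS relative to growing cells. MAP1LC3B, which encodes LC3B, read 5888 and 5911 in RB-KD OIS cells, 8009 and 9312 in Ctrl-KD OIS cells and 4721 and 4607 in growing cells. The states did not overlap. MAP1LC3B was 1.85-fold higher in Ctrl-KD OIS relative to growing cells (log2 0.89, adjusted p = 5.64e-05) and 1.46-fold lower after RB-KD relative to Ctrl-KD in OIS (log2 -0.55, standard error 0.09, adjusted p = 0.00268), and RB-KD OIS cells stayed above growing cells by 0.34 (adjusted p = 0.0163). Its second probe set gave 1.23, -0.30 and 0.93 in these comparisons, each called. The MAP1LC3B call in RB-KD OIS against growing cells was lost in 5 of 15 alternatives. MAP1LC3B has a near-identical copy, MAP1LC3B2, with which its probe sets may share signal.

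GABARAPL2 (GATE-16), a GABARAP-type ATG8, had the same order at smaller distances, with 8306 and 8490 in RB-KD OIS, 10267 and 10561 in Ctrl-KD OIS and 7552 and 7611 in growing cells. It rose by 0.46 in Ctrl-KD OIS over growing cells (adjusted p = 0.000942) and fell by 0.31 in RB-KD over Ctrl-KD cells of the OIS state (adjusted p = 0.0154). RB-KD OIS cells had 0.15 over growing cells, with a 95% interval of -0.02 to 0.31 (adjusted p = 0.152). GABARAPL1, by contrast, had 839.7 and 663.3 in RB-KD OIS, 1073 and 750.8 in Ctrl-KD OIS and 2139 and 2484 in growing cells, and both OIS states lay far below growing cells and overlapped with each other. It was 3.09-fold lower in RB-KD OIS and 2.57-fold lower in Ctrl-KD OIS relative to growing cells (log2 -1.63 and -1.36, standard error 0.18 each, adjusted p = 0.000137 and 0.000315). The second GABARAPL1 probe set fell by 1.31 and 1.03. GABARAPL1 shares sequence with the related GABARAPL3, and a further probe set that names both genes was not used.

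A pair of other ATG8 genes from the wider list, picked after their values were seen, had different patterns. MAP1LC3A, which encodes LC3A, read 610.7 and 539 in RB-KD OIS, 417.9 and 365.7 in Ctrl-KD OIS and 588.2 and 618.5 in growing cells. It rose by 0.55 between the OIS states (adjusted p = 0.0233) and fell by 0.63 in Ctrl-KD OIS relative to growing cells (adjusted p = 0.00717). GABARAP read 17845 and 17046 in RB-KD OIS, 14738.5 and 15151.5 in Ctrl-KD OIS and 12485 and 13080 in growing cells, with RB-KD OIS arrays the highest. It rose over growing cells by 0.45 in RB-KD OIS and by 0.23 in Ctrl-KD OIS (adjusted p = 0.00139 and 0.0374), and the OIS states differed by 0.22 (adjusted p = 0.0599). The values of both genes were higher in RB-KD than in Ctrl-KD cells of the OIS state, and only that of MAP1LC3A was called.

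Of the cargo receptors SQSTM1 (p62), which carries ubiquitinated proteins and is itself degraded with them, rose in Ctrl-KD OIS cells. It read 7591 and 7474 in RB-KD OIS cells, 9194 and 9876 in Ctrl-KD OIS cells and 6367 and 6622 in growing cells, and the states did not overlap. SQSTM1 was 1.47-fold higher in Ctrl-KD OIS relative to growing cells (log2 0.55, adjusted p = 0.000435) and 1.27-fold lower after RB-KD relative to Ctrl-KD in OIS (log2 -0.34, adjusted p = 0.0137). Over growing cells, RB-KD OIS had 0.21 (adjusted p = 0.0598). A second, dimmer SQSTM1 probe set showed larger changes, with 1.15 in Ctrl-KD OIS over growing cells and -1.29 between the OIS states (adjusted p = 0.000325 and 0.000651). The call in Ctrl-KD OIS cells ended with the mean of all 5 probe sets (0.44, adjusted p = 0.306), which takes in 4 dimmer ones.

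TAX1BP1, a receptor for ubiquitinated cargo, had 6611 and 6056 in RB-KD OIS cells, 7405 and 7839 in Ctrl-KD OIS cells and 6980 and 7103 in growing cells. It fell by 0.27 between the OIS states (adjusted p = 0.0432), a call lost in 10 of 15 alternatives, while its second probe set fell by 0.48 (adjusted p = 0.00708). NBR1, a partner of SQSTM1, read 3897 and 3747 in RB-KD OIS, 4344 and 4376 in Ctrl-KD OIS and 4531 and 4633 in growing cells, with RB-KD OIS arrays the lowest. NBR1 fell by 0.26 in RB-KD OIS against growing cells (adjusted p = 0.028), a call lost in 7 of 15 alternatives. CALCOCO2 (NDP52) and OPTN, receptors for bacteria and mitochondria, were not called on their brightest probe sets and had changes of -0.25 to 0.10. A dimmer CALCOCO2 probe set was called at -0.65 between the OIS states and at 0.49 in Ctrl-KD OIS over growing cells (adjusted p = 0.0267 and 0.0456). A dimmer OPTN probe set was called at 0.36 between the OIS states (adjusted p = 0.0259). STX17, the SNARE of fusion, read 530.9 and 422 in RB-KD OIS, 438.9 and 375.4 in Ctrl-KD OIS and 355.4 and 400.6 in growing cells and was not called.

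**Figure D3:**
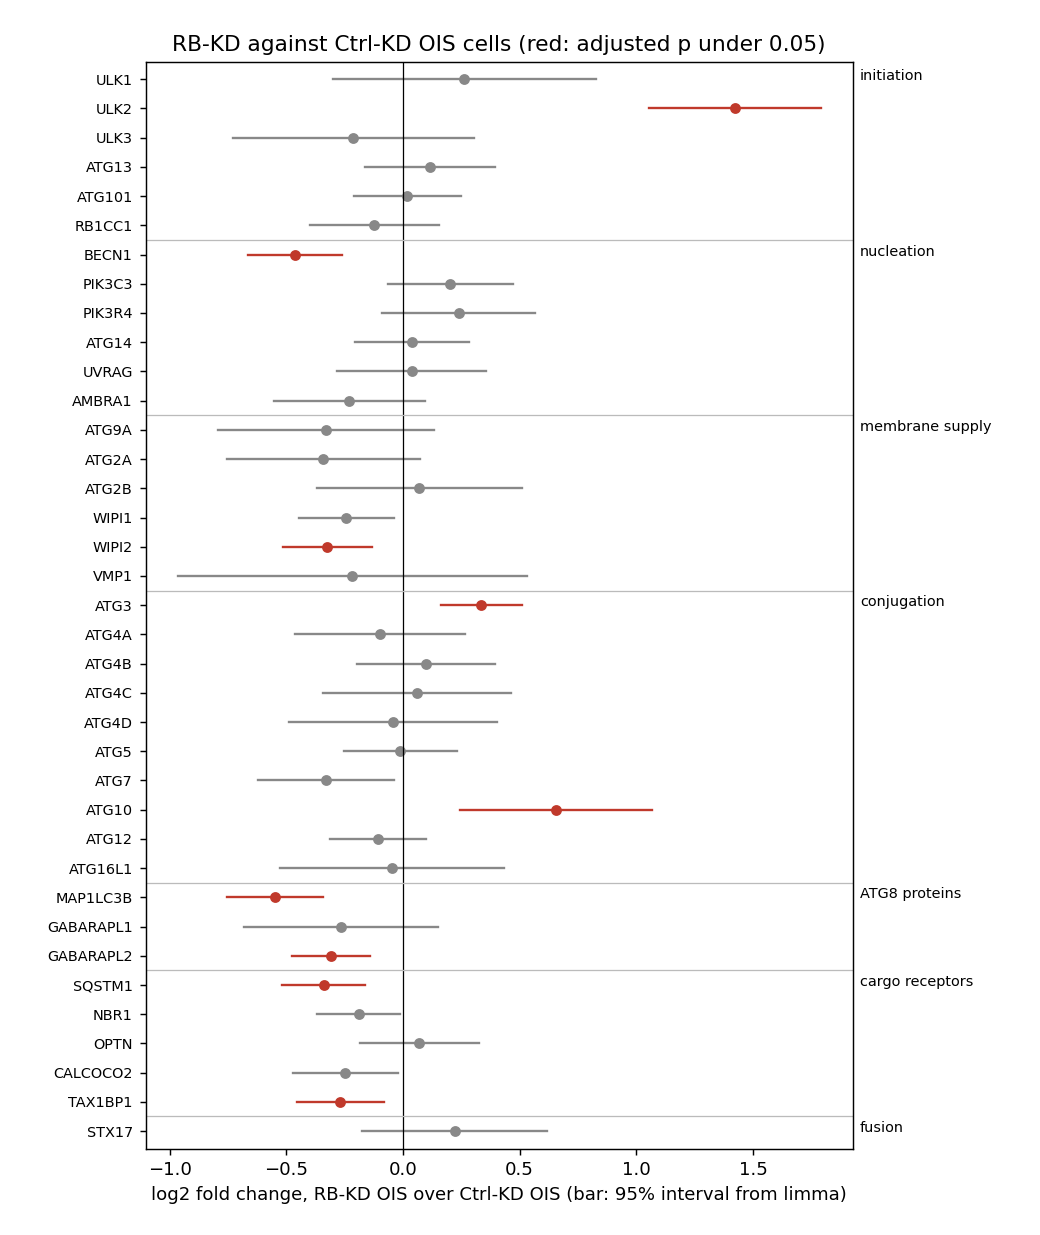
Log2 fold change of RB-KD OIS over Ctrl-KD OIS cells for the 37 genes in order of step, as points with 95% intervals from limma (n = 2 arrays per state), with the 9 called genes in red. ULK2 lies farthest to the right at 1.42, followed by ATG10 and ATG3, and the called genes on the left lie between -0.55 and -0.27.

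Several probe sets of 1 gene gave a further view of the same RNA. The members had 98 probe sets naming them alone, and 82 of these passed the signal filter, with more than 1 for 23 genes. When each probe set was tested by itself among 30139, 7 of the 13 genes called in Ctrl-KD OIS relative to growing cells had a second tested probe set, and for all 7 another was called in the same direction. This held for 6 of 8 in RB-KD OIS against growing cells and for 5 of 8 between the OIS states, and 0 were called in the opposite direction. Other members were called on a dimmer probe set alone. In Ctrl-KD OIS relative to growing cells there were 8 of these, among them ATG13 with 0.86, ATG5 with -0.71 and OPTN with -0.50 (adjusted p = 0.00326, 0.00501 and 0.0023). There were 5 in RB-KD OIS against growing cells, among them STX17 with 0.56 (adjusted p = 0.0299), and 3 between the OIS states, which were ATG7, OPTN and CALCOCO2. For ATG5, 1 of 2 dimmer probe sets, and for PIK3C3, 2 of 3, were called lower while the brightest had a positive value, so their direction depends on the probe set. Probe sets of 1 gene share the same RNA and are not replicates.

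**Figure D4:**
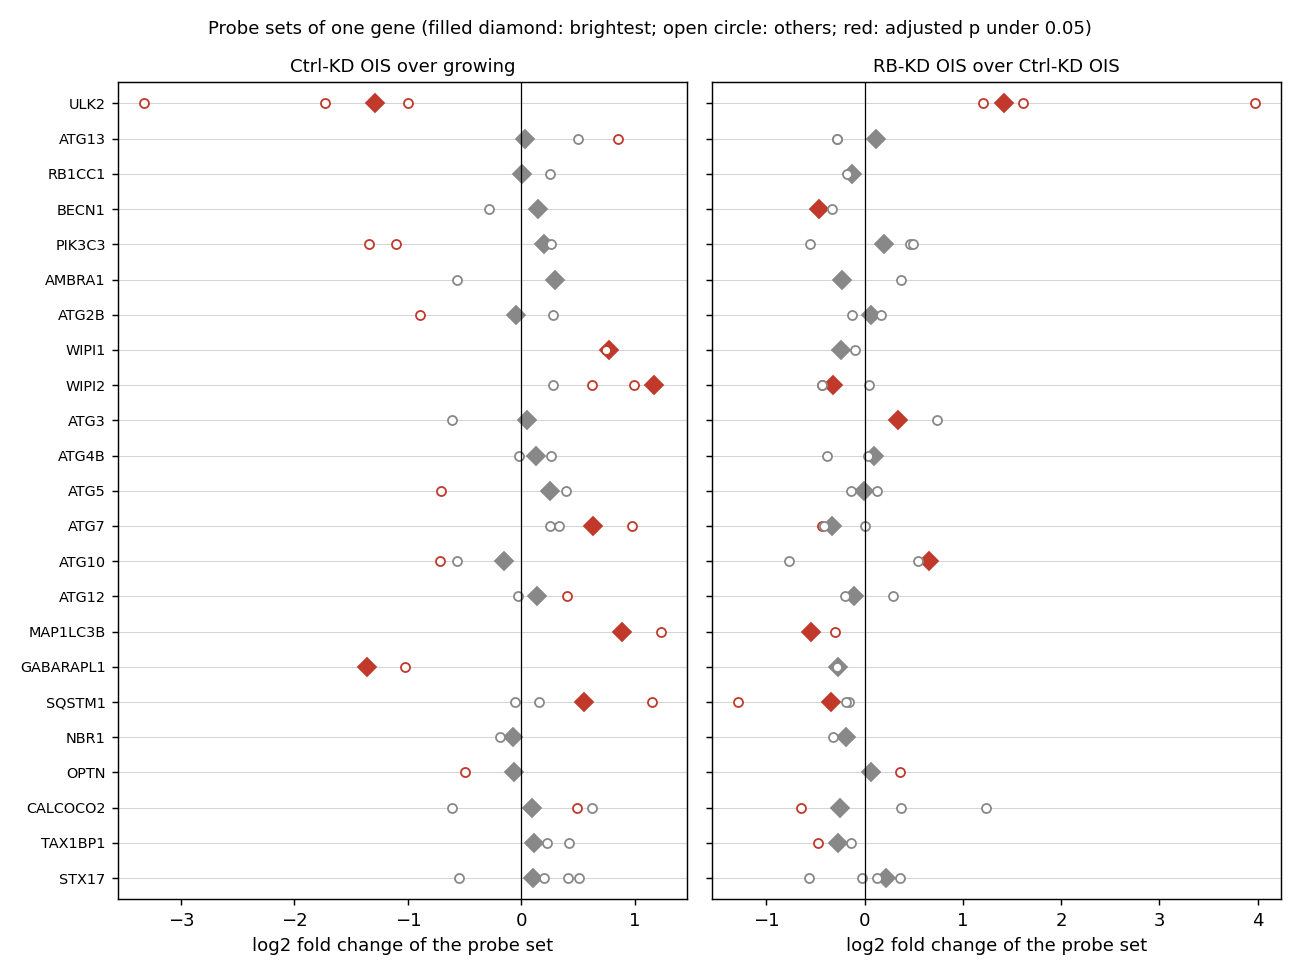
Log2 fold change of each tested probe set of the 23 genes with more than 1, for Ctrl-KD OIS over growing cells (left) and RB-KD OIS over Ctrl-KD OIS cells (right), with the brightest probe set as a filled diamond, others as open circles and called ones in red (n = 2 arrays per state). The probe sets of ULK2, WIPI1, MAP1LC3B and GABARAPL1 lie on 1 side of 0 in each panel, and those of ATG5 and PIK3C3 on both sides in the left panel.

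Other genes of the pathway, from a list of 72 of which 67 were tested, were called in both directions. In Ctrl-KD OIS relative to growing cells 18 were higher and 16 lower (median 0.07), in RB-KD OIS against growing cells 14 and 16 (median -0.03), and in RB-KD over Ctrl-KD cells of the OIS state 6 and 14 (median -0.09). The 18 include DAPK1, which passed the filter only through OIS arrays. Calls made up 50.7%, 44.8% and 29.9% of these 67 genes, against 41.7%, 37.6% and 24.2% of all genes. The 16 fusion genes, which tether and join autophagosomes to lysosomes, had 4 higher and 5 lower, 4 higher and 7 lower, and 1 higher and 6 lower in these comparisons. Their lower calls made up 31.2%, 43.8% and 37.5%, against 21.2%, 19.0% and 11.6% of all genes, and their higher calls 25%, 25% and 6.25%, against 20.5%, 18.5% and 12.6%. YKT6, a SNARE of fusion, read 1189 and 1315 in RB-KD OIS, 2074 and 2076 in Ctrl-KD OIS and 859.3 and 1023 in growing cells, and fell by 0.73 between the OIS states (adjusted p = 0.00234) and rose by 1.15 in Ctrl-KD OIS over growing cells. RAB7B, a late endosome GTPase, had 42.6 and 56 in RB-KD OIS cells, close to the array medians, against 147.9 and 148.8 in Ctrl-KD OIS cells (log2 -1.60, adjusted p = 0.00862). EPG5, a fusion tether, fell by 1.14 in RB-KD OIS against growing cells, and PLEKHM1, an adaptor of RAB7, rose by 1.04 (adjusted p = 4.65e-05 and 0.00264).

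Of the upstream genes and receptors, DRAM1, a p53-induced lysosomal membrane protein, had 2507 and 2594.5 in RB-KD OIS, 1636 and 1776 in Ctrl-KD OIS and 5122 and 4834 in growing cells. It fell by 0.96 and 1.55 against growing cells and rose by 0.58 between the OIS states (adjusted p = 0.00194). BNIP3, a mitophagy receptor, had 11532 and 11362 in RB-KD OIS, 19855 and 15952 in Ctrl-KD OIS and 7419 and 7241 in growing cells, and fell by 0.64 between the OIS states (adjusted p = 0.00246). Among the transcription factors, MITF, a relative of TFEB, fell by 0.97 in RB-KD OIS and 1.16 in Ctrl-KD OIS cells against growing cells. BCL2, which binds BECN1, fell by 1.16 in Ctrl-KD OIS relative to growing cells and rose by 1.13 between the OIS states (adjusted p = 0.0165 and 0.0312). PRKAG2, a subunit of the AMP-activated kinase, fell by 1.23 in RB-KD OIS and by 0.90 in Ctrl-KD OIS cells. DAPK1, a kinase that acts on Beclin 1, read 18.5 and 17.7 in growing cells, below the array median. In Ctrl-KD OIS cells it read 86.3 and 47.5, the second also below its array median, and was at least 1.26-fold higher. It entered the test only through OIS arrays, so no p value is given.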

How the data were processed

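RNA of 6 cultures was hybridized to Affymetrix U133 Plus 2.0 arrays. The deposited intensities are linear MAS5 signals that the authors computed in Affymetrix Expression Console (versions not given in the sources used here), 54613 probe sets from 0.1 to 64701, with no detection calls. The number of arrays limits the precision. The log2 of the signal was used, without an offset. Each gene was read on the brightest of the 41091 probe sets that name 1 gene in the platform table (1801 name several, 11721 none), and no symbol needed an update through RefSeq. The 13398 of 19775 genes that exceeded the median of 2 or more of the 6 arrays were fitted in R 4.3.3 with limma 3.58.1, with 1 mean per state and an intensity trend in the prior variance, and the Benjamini-Hochberg method was applied over all genes tested, with a threshold of 0.05. Array replicate numbers from the titles were not used as a block.

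The genes and lists were chosen with earlier results of these data known. All 37 members are named, and those called in any comparison (20) are given per array, with up to 10 called genes of the wider list by largest change. The fit was checked on simulated data. No set test was run. Gene names in the promoter table are those of RefSeq. Results were recomputed after quantile normalization or median centring, with 12.5 (percentile 25 of the signals) added, unfiltered or filtered at percentile 70, with probe sets averaged per gene, without the variance trend, from the compared states alone, with the replicate number as a block, and without each array in turn.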

Additional observations from a re-analysis of the deposited data

Results flagged for a closer look

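For 4 of the genes the changes against growing cells pointed in opposite directions in the 2 OIS states and the direct test between the OIS states passed. ULK2 had a log2 fold change of 1.42 in RB-KD over Ctrl-KD cells of the OIS state (adjusted p = 0.000397 in limma), with 0.13 in RB-KD OIS and -1.29 in Ctrl-KD OIS relative to growing cells. BECN1 had -0.46 (adjusted p = 0.00593), with -0.32 and 0.14. ATG10 had 0.66 (adjusted p = 0.0296), with 0.51 and -0.15. TAX1BP1 had -0.27 (adjusted p = 0.0432), with -0.15 and 0.11. Of these 4, ULK2 kept its call in all 15 alternatives, BECN1 lost it in 1, ATG10 in 5 and TAX1BP1 in 10. Both comparisons with growing cells use the same growing arrays. For ULK2 and BECN1 only the larger change against growing cells was called, and for ATG10 and TAX1BP1 neither change was called.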

How the results depend on the processing

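The number of members called was 13 in Ctrl-KD OIS relative to growing cells and stayed between 11 and 15 in all 15 alternatives. In RB-KD OIS against growing cells 14 were called, which became 7 when probe sets were averaged and 7 without the variance trend. Leaving out single arrays gave 5 to 16 (5 and 7 without growing replicates 1 and 2, 6 without RB-KD OIS replicate 1). Between the OIS states 9 were called, which became 3 when probe sets were averaged and 3 without the trend, with 4 to 9 when single arrays were left out (4 without either RB-KD OIS replicate). Leaving an array out also leaves fewer values for the spread, and a state with 1 array is then taken to vary like the others. The mean of all probe sets takes in dim ones. It turned BECN1 to 0.24 (adjusted p = 0.564) and PIK3R4 to -2.49 (adjusted p = 0.0365) in RB-KD OIS against growing cells, where 1 of 3 BECN1 and 2 of 3 PIK3R4 probe sets were not above the median of any array. Of 1659 values of single members under the alternatives, 1536 kept their direction and side of the threshold or were uncalled throughout, 95 lost and 26 gained a call, and 2 reversed. The replicate block gave the same counts of 13, 14 and 9. Same-numbered arrays did not deviate together (correlations of -0.0038, 0.010 and 0.035 over genes), so the numbers were not taken as pairs. Dim genes such as VMP1 and ULK1 had wide intervals, and with 2 arrays per state a change that missed the threshold may still be present.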
